A study of Arabidopsis thaliana with 9 samples.

Results

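The Aux/IAA and ARF gene families carry the nuclear response to auxin, and all 43 loci listed for them had a row among the 20777 loci measured: 28 Aux/IAA genes and 15 ARF genes. They were listed by locus code as members of the families, with no threshold on their values. Levels were measured on Affymetrix ATH1 arrays, which hold short probes for most Arabidopsis genes, in the above-ground vegetative tissue of Arabidopsis thaliana seedlings (ecotype Col-0, growth stage 1.03, MS medium, 16 h light and 8 h dark, 22 °C). There were 3 groups with 3 biological replicates each, all without any further treatment: wild type, 35S::GA20OX, which overexpresses a gibberellin-synthesis enzyme, and 35S::JAW, which overexpresses the microRNA miR319a that directs cleavage of a set of TCP transcription factor transcripts. The 35S promoter is active in most tissues, so neither transgene was limited to the leaf margin or to another growing zone. The labels do not say how many independent transgenic lines were used.

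Aux/IAA proteins are short-lived repressors. They bind ARF transcription factors at auxin-responsive genes and bring in co-repressors of the TOPLESS (TPL) family; auxin joins them to TIR1/AFB receptors, which leads to their destruction and frees the ARFs. Many Aux/IAA genes are themselves induced by auxin, so their transcripts form a feedback loop. In leaves, auxin response is tied to vein formation, margin outgrowth and cell expansion, and TCP3, a miR319 target, is known to activate IAA3.

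The targeted gene of each transgenic line differed in the direction its label gives. GA20OX1 (AT4G25420) had log2 values of 12.94, 12.94 and 13.01 in 35S::GA20OX against 6.01 to 6.14 in wild type, and read 5.07, 5.45 and 5.11 in 35S::JAW, where it fell by 0.85 ± 0.09 (adjusted p = 0.000235). In 35S::JAW, TCP2, TCP3, TCP4, TCP10 and TCP24 were lower than in wild type by 1.83 to 3.43 on the log2 scale, and in 35S::GA20OX none of the 5 passed the test. Array medians lay between 6.35 and 6.41. The 2 photosynthesis markers measured, of 4 listed, lay between 13.96 and 14.33 on all arrays. The 4 root markers lay between 3.59 and 6.20, the 4 flower markers between 3.25 and 4.88 and the 3 seed markers between 3.87 and 4.66. Of these only LRX1, a root marker, passed in any comparison, at 0.25 higher in 35S::JAW than in 35S::GA20OX.

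A gene is said to have risen, fallen or passed where limma, fitted to all 20777 loci on the 9 arrays, gave a Benjamini-Hochberg adjusted p under 0.05. Values are log2 expression values on the RMA scale, differences are on that log2 scale with their standard error (SE), and n = 3 arrays per genotype throughout. The SE of a difference ranged over the members from 0.061 to 0.214, and the SD within a genotype from 0.0097 to 0.462 with a median of 0.10.

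In 35S::JAW, 7 of the 28 Aux/IAA genes fell and none rose, and of the 15 ARF genes 2 fell and 1 rose. Over all loci, 8.32% passed in this comparison, 3.98% lower and 4.34% higher, against 23.3% of the 43 members. That background includes dim loci, of which the members hold fewer. With the dimmest loci left out, 12 of 36 members passed, 10 lower and 2 higher. Of the 12466 loci then left, 947 were lower and 989 higher, so a larger share of loci passed as well. The median difference of the Aux/IAA genes was -0.15 and that of the ARF genes 0.01, beside 0.01 over all loci. The groups did not overlap in 20 of the 43 members, 5 with 35S::JAW above and 15 below, where 25.6% of all loci did not overlap, 14.2% above and 11.4% below. The largest decreases were in IAA29 and IAA1, and the rise was in the activator gene ARF6. The samples are whole tissue, so fewer cells of a type and less RNA per cell cannot be told apart. In 35S::GA20OX only IAA6 passed, as a rise, where 0.332% of all loci passed and 0.164% of all loci rose.

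**Figure D1:**
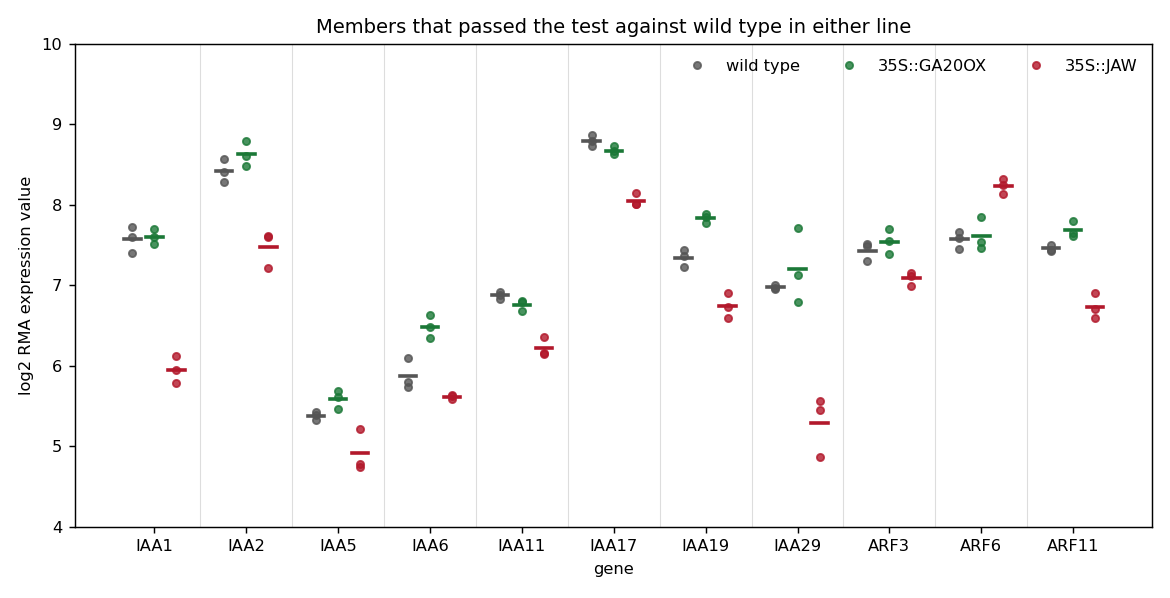
Log2 RMA expression values (y axis) of the 11 members that passed against wild type in either line, with 1 point per array, 3 arrays per genotype and a bar at the mean. The 35S::JAW points lie below all wild-type points for every gene shown except ARF6, where they lie above, while the 35S::GA20OX points lie wholly above wild type for IAA5, IAA6, IAA19 and ARF11 and wholly below it for IAA11.

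Among canonical Aux/IAA genes, the group of IAA1, IAA2, IAA3 and IAA4, small proteins that are close in sequence and encoded by rapidly auxin-induced genes, divided evenly in 35S::JAW. IAA1 (AT4G14560) read 7.72, 7.60 and 7.40 in wild type, 7.70, 7.51 and 7.60 in 35S::GA20OX, and 5.95, 6.12 and 5.78 in 35S::JAW. The 35S::JAW arrays were far below the other 6, which overlapped. Its difference from wild type in 35S::JAW was -1.62 ± 0.10 (SE), a decrease of 3.08-fold (adjusted p = 3.97e-06). IAA2 (AT3G23030) read 8.41, 8.57 and 8.29 in wild type, 8.80, 8.61 and 8.48 in 35S::GA20OX, and 7.62, 7.22 and 7.60 in 35S::JAW. It showed the same separation of 35S::JAW from both other genotypes, with a difference from wild type of -0.94 ± 0.12 (adjusted p = 0.000592).

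IAA3 (AT1G04240, also SHY2), whose stabilised mutant forms alter light and root growth responses, read 7.83, 8.00 and 7.55 in wild type and 8.02, 7.91 and 8.02 in 35S::JAW. These ranges overlapped. Its difference was 0.19 with a 95% interval from -0.04 to 0.42 (adjusted p = 0.356), so a decrease of the size seen in IAA1 or IAA2 lies outside that interval. In 35S::GA20OX, where it read 8.00, 8.20 and 8.04, the difference was 0.28 (adjusted p = 0.374). IAA4 (AT5G43700) had differences of 0.10 in 35S::JAW, with an interval from -0.15 to 0.35, and 0.17 in 35S::GA20OX, and neither passed.

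IAA5, IAA6 and IAA19 form a further group of close relatives, in which IAA19 (also MSG2) acts with ARF7 in bending growth of the hypocotyl and IAA6 (also SHY1) affects hypocotyl growth. IAA19 (AT3G15540) read 7.23, 7.37 and 7.43 in wild type, 7.89, 7.77 and 7.85 in 35S::GA20OX, and 6.73, 6.91 and 6.59 in 35S::JAW. The 3 genotypes did not overlap, with 35S::GA20OX highest and 35S::JAW lowest. Its difference from wild type was -0.60 ± 0.09 in 35S::JAW (adjusted p = 0.0017) and 0.49 ± 0.09 in 35S::GA20OX, just short of the threshold (adjusted p = 0.051).

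IAA6 (AT1G52830) read 5.80, 6.09 and 5.74 in wild type, 6.48, 6.63 and 6.35 in 35S::GA20OX, and 5.58, 5.64 and 5.63 in 35S::JAW. Here too the genotypes did not overlap, in the same order. In 35S::GA20OX it rose by 0.61 ± 0.10, or 1.53-fold (adjusted p = 0.03), and in 35S::JAW the difference was -0.26 ± 0.10 (adjusted p = 0.157). The call of IAA6 was lost when any one of 5 arrays was omitted, namely wild type replicate 1 or 3, 35S::GA20OX replicate 1 or 2, or 35S::JAW replicate 3. Its difference was then 0.54 to 0.61, and the adjusted p reached 0.138. IAA19 passed in 35S::GA20OX without 35S::JAW replicate 2 (adjusted p = 0.026) or replicate 3 (0.0458).

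IAA5 (AT1G15580) read 5.39, 5.33 and 5.43 in wild type, 5.46, 5.69 and 5.61 in 35S::GA20OX, and 5.21, 4.74 and 4.79 in 35S::JAW, again without overlap. Replicate 1 of 35S::JAW lay closest to wild type. Its difference of -0.47 ± 0.11 in 35S::JAW passed (adjusted p = 0.0285), and its difference of 0.21 in 35S::GA20OX did not (adjusted p = 0.574). The decrease of IAA5 lost its call without any 1 wild-type array and without 35S::JAW replicate 2 or 3 (differences of -0.38 to -0.49, adjusted p up to 0.104). The comparisons of the lines with wild type share the wild-type arrays, so the differences of a gene in the lines are not independent. An error in the wild-type mean would move both differences in the same direction.

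IAA29 (AT4G32280), a gene known to be induced by shade and by PIF transcription factors, read 6.95, 6.97 and 7.01 in wild type and 5.45, 5.56 and 4.87 in 35S::JAW. In 35S::GA20OX it read 7.71, 6.80 and 7.12, on both sides of wild type. IAA29 had the largest spread of all members, an SD of 0.46 in 35S::GA20OX and 0.37 in 35S::JAW beside 0.03 in wild type. In 35S::JAW it fell by 1.69 ± 0.21, or 3.22-fold (adjusted p = 0.000554), and its difference in 35S::GA20OX was 0.23 (adjusted p = 0.761).

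In the group of IAA7, IAA14, IAA16 and IAA17, which contains the genes of the auxin-resistant mutants axr2 (IAA7) and axr3 (IAA17) and of solitary-root (IAA14), only IAA17 passed in 35S::JAW. IAA17 (AT1G04250) read 8.73, 8.87 and 8.79 in wild type, 8.73, 8.67 and 8.63 in 35S::GA20OX, and 8.14, 8.01 and 8.01 in 35S::JAW. It fell by 0.74 ± 0.07 in 35S::JAW (adjusted p = 5.93e-05). IAA7 (AT3G23050) read 10.39, 10.66 and 10.43 in wild type and 10.76, 10.70 and 10.79 in 35S::JAW, without overlap and with 35S::JAW higher, but its difference of 0.26 ± 0.08 did not pass (adjusted p = 0.0748). Without wild type replicate 2, the highest of its group, IAA7 passed with a difference of 0.34 (adjusted p = 0.018). IAA16 had a difference of 0.22 and IAA14 of -0.17 in 35S::JAW, and neither passed.

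**Figure D2:**
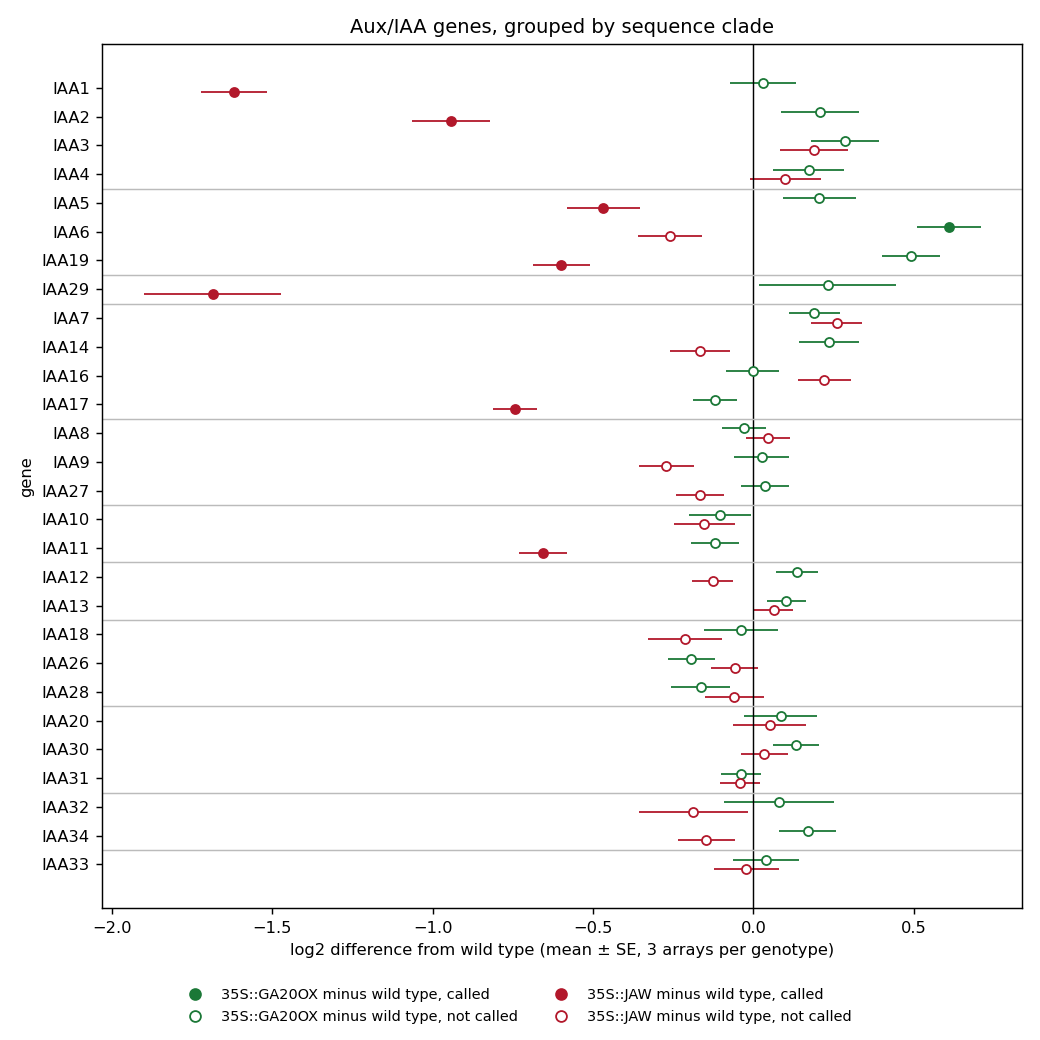
Log2 difference from wild type (x axis, mean with its SE, 3 arrays per genotype) of each of the 28 Aux/IAA genes (y axis), grouped by sequence relationship, with filled points for genes past an adjusted p of 0.05. The filled 35S::JAW points are IAA1, IAA2, IAA5, IAA11, IAA17, IAA19 and IAA29, all to the left of 0, and IAA6 is the only filled 35S::GA20OX point.

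IAA11 (AT4G28640) was the only other Aux/IAA gene to pass in 35S::JAW. It read 6.92, 6.83 and 6.88 in wild type, 6.80, 6.68 and 6.80 in 35S::GA20OX, and 6.14, 6.36 and 6.16 in 35S::JAW. It fell by 0.66 ± 0.07 (adjusted p = 0.000287), while its nearest relative IAA10 (AT1G04100) had a difference of -0.15, with an interval from -0.36 to 0.06.

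Several of these genes are neighbours in the genome, with no other protein-coding gene between them in the RefSeq annotation of TAIR10.1, and the neighbours had unequal differences in 35S::JAW. IAA1 lies beside IAA14 and differed from wild type by -1.62 where IAA14 differed by -0.17. IAA17 lies beside IAA3, with -0.74 against 0.19, and IAA2 lies beside IAA7, with -0.94 against 0.26. The change of the log2 ratio between the neighbours was 1.45 for IAA14 over IAA1, 0.93 for IAA3 over IAA17 and -1.20 for IAA2 over IAA7. The ratios did not overlap between the 3 wild-type and 3 35S::JAW arrays in any of the 3 pairs. The two-sided exact permutation p was 0.1 for each pair, the smallest that 3 arrays against 3 can give, so it cannot decide. IAA1, IAA17 and IAA2 had already passed on these same arrays, so the separation of the ratios is not separate evidence. How often neighbouring loci separate in this way over the whole array was not computed. Each pair joins a gene of the IAA1 to IAA4 group with one of the IAA7 group.

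The other 20 Aux/IAA genes did not pass against wild type in either line. Their differences in 35S::JAW lay between -0.27 for IAA9 and 0.26 for IAA7. IAA9 (AT5G65670), whose counterpart in tomato shapes leaf dissection, read 10.10, 9.97 and 10.26 in wild type and 9.80, 9.92 and 9.81 in 35S::JAW. The groups did not overlap, with 35S::JAW lower, and the adjusted p was 0.0843. IAA9 passed without wild type replicate 2 (difference -0.34, adjusted p = 0.042). Its relatives had a difference of 0.05 (IAA8) and -0.17 (IAA27). IAA12 (also BODENLOS), which restrains ARF5 in the embryo, differed by -0.13 and its relative IAA13 by 0.06. IAA18, IAA26 and IAA28, of which IAA26 binds phytochrome and IAA28 restrains lateral roots, differed by -0.21, -0.06 and -0.06.

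The members that lack the intact degron by which auxin triggers destruction, IAA20, IAA30, IAA31, IAA32, IAA33 and IAA34, all read between 3.36 and 5.10 and none passed against wild type. Their differences lay between -0.19 and 0.05 in 35S::JAW and between -0.04 and 0.17 in 35S::GA20OX. IAA31 lay below the lower quartile of all 9 arrays. RMA compresses changes at such low values, so changes in these 6 genes may be understated.

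In 35S::GA20OX, the differences of the 27 Aux/IAA genes that did not pass lay between -0.19 for IAA26 and 0.49 for IAA19. By limma no Aux/IAA or ARF gene fell. At an unadjusted p under 0.05, 7 of the 43 members were higher and 1 was lower, and of all 20777 loci 1103 were higher and 1071 lower. The groups did not overlap in 13 members, 9 with 35S::GA20OX above and 4 below, where 16.8% of all loci did not overlap, 8.53% above and 8.3% below. The median difference of the Aux/IAA genes was 0.08, beside 0.00 over all loci.

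ARF proteins that activate transcription, ARF5, ARF6, ARF7, ARF8 and ARF19, differ from the remaining ARFs, which act mainly as repressors. ARF6 (AT1G30330), a target of miR167 that acts with ARF8 in flower maturation, read 7.59, 7.45 and 7.67 in wild type, 7.47, 7.53 and 7.85 in 35S::GA20OX, and 8.13, 8.33 and 8.25 in 35S::JAW. All 35S::JAW arrays lay above the other 6. It rose by 0.66 ± 0.10, or 1.58-fold (adjusted p = 0.00236). ARF8 (AT5G37020), the other miR167 target, read 6.99, 6.81 and 6.96 in wild type and 7.08, 7.13 and 7.12 in 35S::JAW. Its difference was 0.19, with a 95% interval whose upper end was 0.38 (adjusted p = 0.243).

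ARF7 (AT5G20730) and ARF19 (AT1G19220), which act together in leaf expansion and lateral root formation, had differences of 0.13 and 0.33 in 35S::JAW. ARF19 read 6.42, 6.12 and 6.54 in wild type and 6.73, 6.61 and 6.72 in 35S::JAW, and did not pass (adjusted p = 0.13). With the replicate number as a block it passed (adjusted p = 0.0302). ARF5 (also MONOPTEROS), which drives vein and embryo patterning, differed by -0.01 in 35S::JAW, with an interval from -0.28 to 0.26, and by -0.17 in 35S::GA20OX. For 4 of the 5 activators, ARF5 being the exception, all 35S::JAW arrays lay above wild type, where 14.2% of all loci did.

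Among the 10 repressors, ARF11 (AT2G46530) read 7.44, 7.43 and 7.51 in wild type, 7.65, 7.80 and 7.61 in 35S::GA20OX, and 6.71, 6.59 and 6.90 in 35S::JAW. The 3 genotypes did not overlap. ARF11 fell by 0.72 ± 0.09 in 35S::JAW (adjusted p = 0.000365), and its difference in 35S::GA20OX was 0.23 (adjusted p = 0.386). ARF18 (AT3G61830), close to ARF11 in sequence, read 6.60, 6.40 and 6.50 in wild type and 6.25, 6.28 and 6.13 in 35S::JAW. These did not overlap either, but the difference of -0.28 ± 0.09 did not pass (adjusted p = 0.0767).

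ARF2, ARF3 and ARF4 are cleaved through trans-acting small RNAs, and ARF3 (also ETTIN) and ARF4 specify the lower side of the leaf. ARF3 (AT2G33860) read 7.51, 7.30 and 7.49 in wild type, 7.55, 7.39 and 7.70 in 35S::GA20OX, and 7.12, 7.00 and 7.16 in 35S::JAW. It fell by 0.34 ± 0.09 in 35S::JAW, close to the threshold (adjusted p = 0.0461). That call was lost without any 1 of 6 arrays: wild type replicate 1 or 3, 35S::GA20OX replicate 1, or any 35S::JAW replicate (differences of -0.29 to -0.37, adjusted p up to 0.167). ARF4 differed by -0.13 in 35S::JAW and ARF2, which limits organ size, by -0.08. The miR160 targets ARF10, ARF16 and ARF17 differed by 0.01, 0.13 and -0.05. ARF17 read 7.25, 6.38 and 6.63 in 35S::GA20OX, the widest spread among the ARF genes. ARF1 and ARF9 differed by 0.02 and 0.01.

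**Figure D3:**
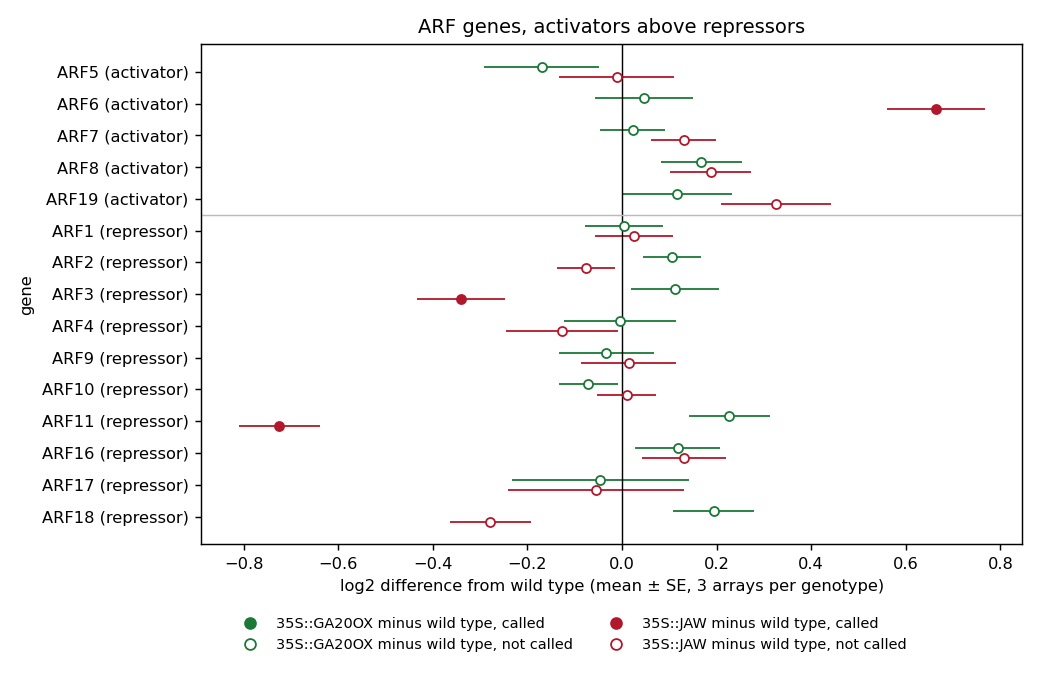
Log2 difference from wild type (x axis, mean with its SE, 3 arrays per genotype) of each of the 15 ARF genes (y axis), activators above the line and repressors below, with filled points for genes past an adjusted p of 0.05. ARF6 lies at 0.66 and ARF11 at -0.72 in 35S::JAW, ARF3 at -0.34, and the 12 others lie between -0.28 and 0.33.

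The ARF genes shared a pattern between replicates. Replicate 2 was the lowest of the 3 arrays for 12 of the 15 ARF genes in wild type, 11 in 35S::GA20OX and 10 in 35S::JAW, where it was the lowest for 38.9%, 37.1% and 30.9% of all loci. The median deviation of the ARF genes from their genotype mean was -0.10 on wild type replicate 2, -0.11 on 35S::GA20OX replicate 2 and -0.10 on 35S::JAW replicate 2. Among the 28 Aux/IAA genes replicate 2 was lowest for 8, 12 and 10. With the 3 arrays numbered 2 left out, ARF6 differed in 35S::JAW by 0.56 (adjusted p = 0.0371) and ARF11 by -0.67 (adjusted p = 0.00415). ARF3 then differed by -0.36 and passed (adjusted p = 0.0384).

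**Figure D4:**
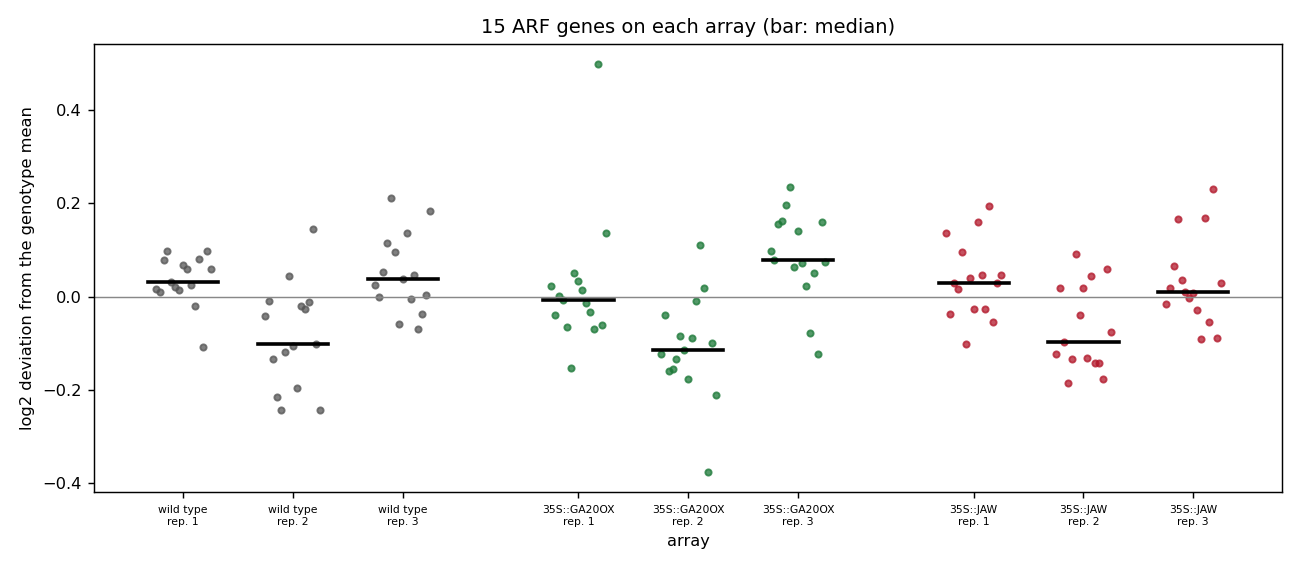
Deviation of each of the 15 ARF genes from its genotype mean on the log2 scale (y axis) on each of the 9 arrays (x axis), with a bar at the median of each array. The medians of the 3 arrays numbered 2 lie at -0.10, -0.11 and -0.10, and those of the other 6 between -0.01 and 0.08.

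Set directly against each other, the lines differed in 16 of the 43 members, 15 lower and 1 higher in 35S::JAW, where 13.2% of all loci passed, 6.52% lower and 6.71% higher. With the dimmest loci left out, 15 of 36 members passed, 14 lower and 1 higher, where 1483 of 12466 loci were lower and 1552 higher. The lines did not overlap in 20 of the 43 members, where 30.2% of all loci did not overlap. The 12 Aux/IAA genes among the 16 members were the 7 that fell against wild type together with IAA6, IAA9, IAA12, IAA14 and IAA34. IAA29 was lower by 1.92 ± 0.21, IAA1 by 1.65 ± 0.10 and IAA2 by 1.15 ± 0.12. IAA19 differed by -1.09 ± 0.09, or 2.13-fold (adjusted p = 1.87e-05), IAA6 by -0.87 ± 0.10 and IAA5 by -0.67 ± 0.11, so each of the 3 genes of that group separated the lines.

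IAA14 (AT4G14550), needed for the control of lateral root initiation, read 8.13, 7.97 and 8.08 in 35S::GA20OX and 7.69, 7.56 and 7.72 in 35S::JAW, with wild type at 7.92, 7.62 and 7.93. The lines did not overlap, and wild type overlapped 35S::JAW. It differed between the lines by -0.40 ± 0.09 (adjusted p = 0.0148). IAA12 (AT1G04550) read 6.86, 6.71 and 6.71 in wild type, 6.88, 6.93 and 6.89 in 35S::GA20OX, and 6.64, 6.60 and 6.66 in 35S::JAW, and the 3 genotypes did not overlap. IAA34 (AT1G15050) read 4.28, 4.56 and 4.29 in wild type, 4.47, 4.66 and 4.51 in 35S::GA20OX, and 4.24, 4.16 and 4.29 in 35S::JAW, where wild type overlapped both lines. IAA9 differed between the lines by -0.30, IAA12 by -0.26 and IAA34 by -0.32, with adjusted p between 0.0201 and 0.043. Each of these 4 lost its call with at least 1 array left out. IAA14 lost it without 35S::GA20OX replicate 1 (adjusted p = 0.054). IAA9 lost it without wild type replicate 1, 35S::GA20OX replicate 1 or 3, or 35S::JAW replicate 1 or 3 (up to 0.149). IAA12 lost it without 35S::GA20OX replicate 2 or 3 or 35S::JAW replicate 1 or 2 (up to 0.067), and IAA34 without any 1 array of the 2 lines (up to 0.134).

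Of the ARF genes, ARF11 differed between the lines by -0.95 ± 0.09, ARF18 by -0.47 ± 0.09 and ARF3 by -0.45 ± 0.09, and ARF6 was higher in 35S::JAW by 0.62 ± 0.10. ARF18, which passed against wild type in neither line, read 6.63, 6.60 and 6.86 in 35S::GA20OX, and so overlapped wild type. The other 11 ARF genes differed between the lines by -0.18 to 0.21.

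The remaining steps of the auxin pathway were followed in 4 lists, whose counts in 35S::JAW stand beside 4.34% of all loci higher and 3.98% lower. Of 9 receptor and co-repressor genes measured out of 11 listed, the receptor gene AFB2 (AT3G26810) rose in 35S::JAW by 0.32 ± 0.07 (adjusted p = 0.0133), and the others, TIR1 and TPL among them, did not pass. AFB2 read 7.84, 7.92 and 7.98 in wild type and 8.18, 8.24 and 8.29 in 35S::JAW, without overlap. Its call was lost without wild type replicate 1 or 35S::JAW replicate 3 (adjusted p up to 0.0671), and with the 3 arrays numbered 2 left out (0.0675).

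Of 14 auxin synthesis genes 2 fell in 35S::JAW. TAA1 (AT1G70560), the aminotransferase of the first step from tryptophan, read 7.61, 7.29 and 7.47 in wild type, 7.50, 7.31 and 7.46 in 35S::GA20OX, and 6.83, 6.38 and 6.53 in 35S::JAW. It fell by 0.88 ± 0.12, or 1.84-fold (adjusted p = 0.000752). YUC8, one of the flavin monooxygenases of the second step, fell by 0.40 ± 0.10 (adjusted p = 0.0282, and up to 0.098 without wild type replicate 2, 35S::JAW replicate 1 or 35S::JAW replicate 3). It read between 4.15 and 4.86 on the 9 arrays, where RMA compresses changes. TAR2, a relative of TAA1, had a difference of 0.37 (adjusted p = 0.0691), which passed without the dimmest loci (0.0431), with the intensity trend (0.0384) and without 35S::JAW replicate 3 (0.0339).

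Of 15 transport genes 3 rose in 35S::JAW and none fell. The uptake carrier gene AUX1 (AT2G38120) read 9.77, 9.91 and 9.75 in wild type and 10.41, 10.40 and 10.47 in 35S::JAW. It rose by 0.62 ± 0.08 (adjusted p = 0.000475). The efflux transporter genes ABCB19 and ABCB1 rose by 0.37 ± 0.07 and 0.33 ± 0.06. None of the 8 PIN efflux carrier genes passed against wild type. PIN3 had a difference of -0.22 in 35S::JAW (adjusted p = 0.0754), which passed without the dimmest 40% of loci (0.0387) and with a robust prior and intensity trend (0.0264). It also differed between the lines by -0.44 ± 0.07 (adjusted p = 0.00152).

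Of 7 conjugation and oxidation genes measured out of 9 listed, 3 fell and 1 rose in 35S::JAW. GH3.5, GH3.6 and GH3.3, which encode auxin-inducible enzymes that join auxin to amino acids, fell by 0.72 ± 0.10, 0.61 ± 0.12 and 0.38 ± 0.08. GH3.6 (AT5G54510) read 9.22, 9.11 and 9.37 in wild type, 9.49, 9.18 and 9.70 in 35S::GA20OX, and 8.66, 8.51 and 8.69 in 35S::JAW. GH3.9 rose by 0.42 ± 0.07. GH3.3 lost its call with the 3 arrays numbered 2 left out (difference -0.28, adjusted p = 0.0749). The median difference of that list in 35S::JAW was -0.33, beside 0.12 for receptors and co-repressors, 0.03 for synthesis and 0.04 for transport.

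In 35S::GA20OX none of the genes in these 4 lists passed by limma. At an unadjusted p under 0.05, 0 of the receptor and co-repressor genes were higher and 0 lower, 1 and 0 of the synthesis genes, 3 and 0 of the transport genes, and 1 and 1 of the conjugation and oxidation genes, beside 1103 and 1071 of all 20777 loci. The largest differences were 0.12 for AFB1, 0.19 for YUC3, 0.28 for LAX3 and -0.28 for GH3.17. Between the lines, where 6.71% of all loci were higher and 6.52% lower, the direct comparison gave 1 receptor gene higher in 35S::JAW (AFB2), 1 synthesis gene higher (TAR2) and 2 lower (TAA1 and YUC8), 3 transport genes higher (AUX1, ABCB1 and ABCB19) and 2 lower (PIN3 and LAX2), and 2 conjugation genes lower (GH3.5 and GH3.6). Of these, 5 calls were lost with single arrays left out. TAR2 lost its call without 35S::GA20OX replicate 2 or 3 or 35S::JAW replicate 1 or 2 (adjusted p up to 0.0663), and ABCB19 without 35S::GA20OX replicate 2 or 35S::JAW replicate 1 or 3 (up to 0.0812). YUC8 lost it without any array but wild type replicate 2 or 3 and 35S::JAW replicate 2 (up to 0.142), ABCB1 without any but wild type replicate 2 and 35S::JAW replicate 2 (up to 0.146), and LAX2 without any but wild type replicate 1, 35S::GA20OX replicate 2 and 35S::JAW replicate 3 (up to 0.151). With the 3 arrays numbered 2 left out, AFB2 lost its call between the lines (adjusted p = 0.0649), as did TAR2, ABCB1, ABCB19 and LAX2.

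**Figure D5:**
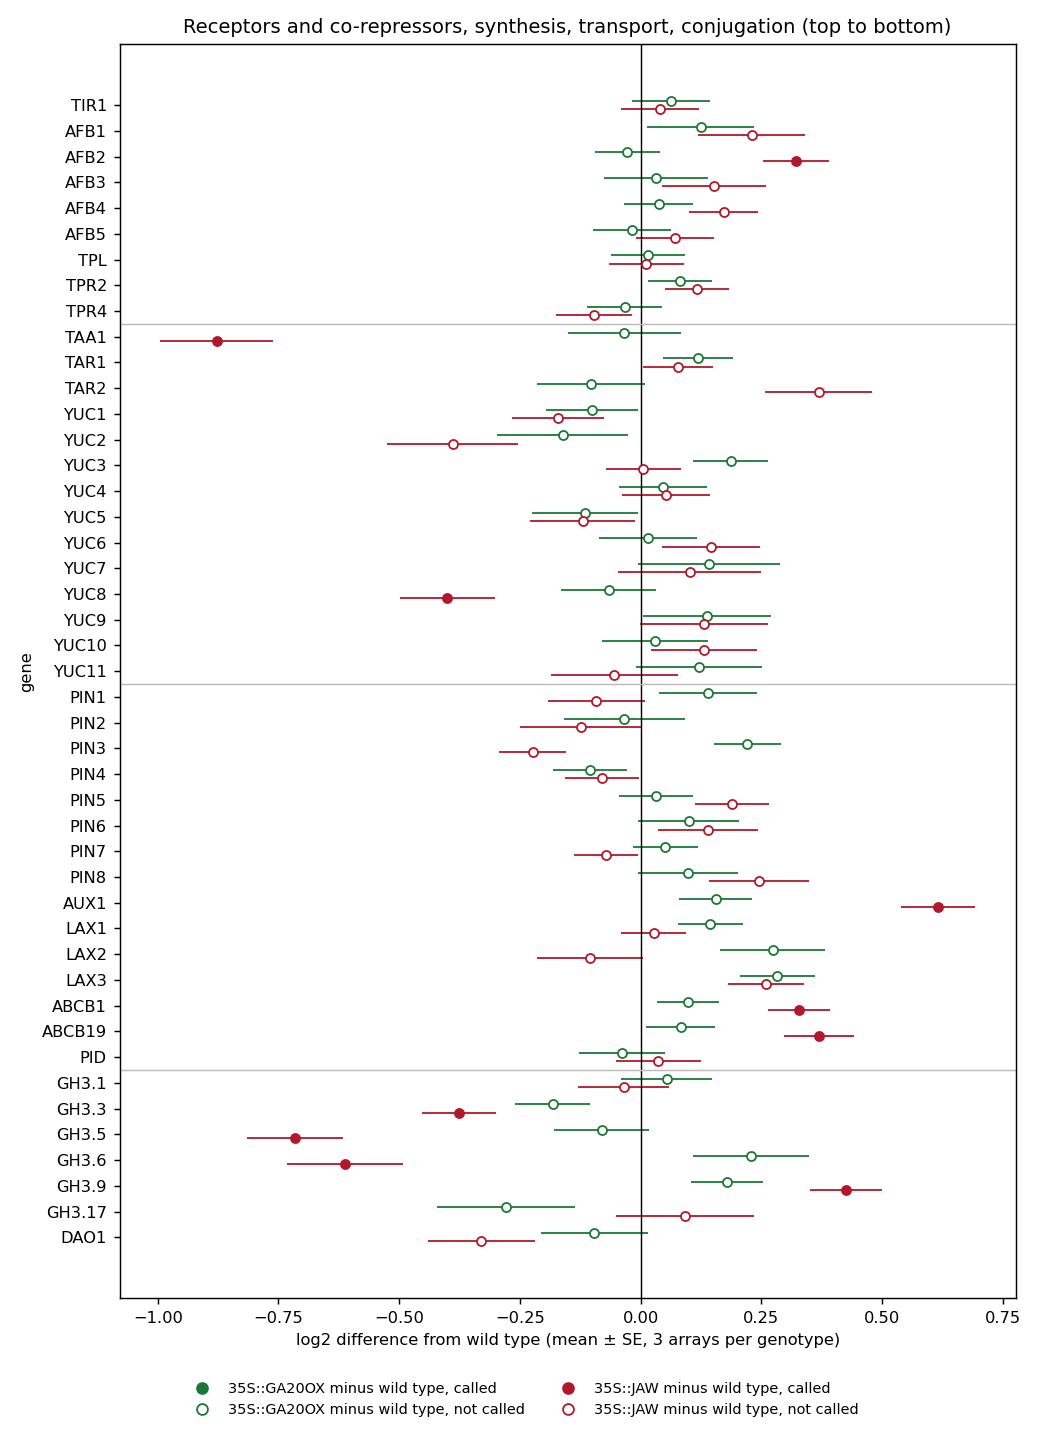
Log2 difference from wild type (x axis, mean with its SE, 3 arrays per genotype) of the measured genes of the other auxin lists (y axis): receptors and co-repressors, synthesis, transport, then conjugation and oxidation, separated by lines, with filled points for genes past an adjusted p of 0.05. In 35S::JAW the filled points to the left of 0 are TAA1, YUC8, GH3.3, GH3.5 and GH3.6 and those to the right are AFB2, AUX1, ABCB1, ABCB19 and GH3.9, and no 35S::GA20OX point is filled.

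Of 5 vascular markers, none passed in 35S::JAW against wild type by limma, all 5 had negative differences (-0.43 to -0.20), and 4 lay wholly below wild type, where 11.4% of all loci did. XCP1 came closest to passing (limma adjusted p = 0.0525). At an unadjusted limma p under 0.05, 4 of the 5 were lower in 35S::JAW, as were 1990 of all 20777 loci. The summed log2 level of the 5 vascular markers was 40.1 to 41.0 in wild type, 40.5 to 41.8 in 35S::GA20OX and 38.6 to 39.7 in 35S::JAW. Between the lines XCP1, XCP2 and ATHB8 were lower in 35S::JAW by 0.72, 0.60 and 0.43 (limma adjusted p = 0.00246, 0.00276 and 0.0495). Of all loci, 6.52% were lower in that comparison. SUC2 and APL differed between the lines by -0.08 and -0.26 and did not pass. XCP1 and XCP2 lay wholly above wild type in 35S::GA20OX, where 8.53% of all loci did, without passing. The marker calls were not rerun with arrays left out. Of 5 shoot meristem and boundary markers, only STM passed in any comparison, with a difference of -0.49 between 35S::JAW and 35S::GA20OX. Against wild type STM differed in 35S::JAW by -0.40, just short of the threshold (limma adjusted p = 0.0539). CUC1, CUC3 and WUS lay below the lower quartile of every array, and CUC2 read between 4.14 and 4.69. RMA compresses changes at such low values, so changes in CUC1, CUC2, CUC3 and WUS may be understated. The summed level of the 5 markers was 21.4 to 21.8 in wild type, 21.0 to 22.1 in 35S::GA20OX and 20.3 to 21.8 in 35S::JAW. The part of these markers in the auxin results was not tested.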

How the data were processed

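Total RNA from 9 samples in 3 genotypes was hybridised to ATH1 arrays, per the labels. The authors deposited log2 values from RMA (named in the submitters' processing notes), a method that removes background, brings the arrays to a like distribution and merges probes. A shift common to all genes is thereby lost, and changes of dim genes are compressed. RMA's version and chip definition were not given in the sources used here. With 1 row per locus and neither scan dates nor detection calls, no batch was tested. All 43 member names matched symbols or synonyms in the RefSeq gene table of TAIR10.1, used for names and gene order only.

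Differences were computed in R 4.3.3 with limma 3.58.1 (lmFit with 1 mean per genotype over 9 arrays, eBayes with a constant prior, two-sided, Benjamini-Hochberg over all 20777 loci). The fit was tested on simulated data with independent noise on each array, so shifts shared by same-numbered arrays were not covered. Intervals are 95%. The number of arrays limits the precision. No locus was filtered out. The members and the lists of auxin, marker and targeted genes were chosen with earlier results of these data known. Every member is accounted for, those past an adjusted p of 0.05 with array values. Of the other lists up to 4 genes that passed per comparison are named, or the largest difference. LAX2, beyond that number, was named after its values were seen. Alternatives were cyclic loess, median centring, a filter on the dimmest 40% of loci, a robust prior with an intensity trend, the replicate number as a block, only the arrays compared, an adjusted p of 0.01, leaving out each array and, chosen after seeing the data, leaving out the 3 arrays numbered 2.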

Additional observations from a re-analysis of the deposited data

How the results depend on the processing

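No member or pathway gene that passed turned its direction under the alternatives run, but most of these could not have turned it. The dim filter, the intensity trend, the block, the fit to the arrays compared and the stricter threshold leave the difference itself unchanged. The genes that passed had groups without overlap, so leaving out arrays could not turn them either. Only cyclic loess and median centring could have done so. In 35S::JAW against wild type, 9 members fell, 7 to 9 did with 1 array left out, and 10 did without the dimmest 40% of loci (with IAA9 and ARF18, and without IAA5, which that filter removes) or with an intensity trend and robust prior (with IAA9). The rise counted 1 member (ARF6), 2 under either of those settings (with IAA7), 2 with the replicate number as a block (with ARF19), and 1 to 3 with arrays left out, the 3 being ARF6, IAA7 and IAA16 without the arrays numbered 2. IAA1, IAA2, IAA11, IAA17, IAA19, IAA29, ARF6 and ARF11 passed under all of these, at an adjusted p of 0.01 too. With the arrays numbered 2 left out, IAA5 lost its call in 35S::JAW, IAA6 in 35S::GA20OX, and IAA12 and IAA34 between the lines. In 35S::GA20OX, 1 member rose (IAA6), 2 did without the dimmest loci or with the intensity trend (with IAA19), 0 at an adjusted p of 0.01 and 0 to 2 with arrays left out. Fitted to the 6 arrays compared, IAA19 passed (adjusted p = 0.0404) and IAA6 did not. Between the lines 15 members were lower, 12 to 15 with 1 array left out, 11 at an adjusted p of 0.01, 14 with median centring (without IAA34) or without the dimmest loci (with ARF2, and without IAA5 and IAA34, which are removed) and 16 with the intensity trend (with ARF2). In the other direction 1 member was higher, or 2 with the intensity trend (with IAA16). Over all loci, 34 were higher in 35S::GA20OX, and 102 with the intensity trend, 55 without the dimmest loci and 8 at an adjusted p of 0.01. The replicate numbers were not taken to pair the arrays in the main fit. Of 9 same-numbered pairs, 4 had deviations that correlated above 0.1 over loci, which are not independent. Among the same-numbered pairs only wild type and 35S::GA20OX replicate 1 correlated negatively, while pairs with different numbers had both signs. The range over loci was -0.10 to 0.25 for the same number, against -0.22 to 0.17 for different numbers. Over the 43 members it was -0.24 to 0.60, against -0.72 to 0.46, so a shared origin of same-numbered arrays cannot be told from these values. With the block 1 member rose in 35S::GA20OX and 9 fell in 35S::JAW. The dim filter removed 7 members, IAA5, IAA20 and IAA30 to IAA34. The causes of these shifts were not tested.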

Other observations

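In each genotype the array numbered 2 had the highest lower quartile and the lowest median of its 3 arrays. Lower quartiles were 4.33, 4.36 and 4.42 on those arrays and 4.28 to 4.31 on the other 6, and the interquartile range was narrowest on them, at 3.71, 3.67 and 3.62 against 3.75 to 3.79. The median ARF value was also lowest on the array numbered 2 of each genotype, at 6.94, 6.91 and 6.87. The part of the narrower range in the ARF pattern was not tested.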
